A study of Mus musculus with 6 samples.

Results

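The 10 genes described here encode AP-1 subunits and related immediate early factors: the Fos family (Fos, Fosb, Fosl1, Fosl2), the Jun family (Jun, Junb, Jund), Atf3, Maff and the zinc finger factor Egr1. They were chosen by gene symbol, and all 10 were found among the 49585 genes of the count tables and passed the filter on low counts, which left 13759 genes. RNA was sequenced from tumoroids, which are cultures of mouse intestinal adenoma cells grown in Matrigel, with 3 knock-out and 3 wild-type libraries. Knock-out cultures were APC min/+ with Villin-Cre and were IKKa FL/FL, and wild-type cultures were APC min/+ with Villin-Cre and were IKKa +/+, all on the C57BL/6 strain. Both genotypes therefore carried the Min allele of Apc and the Cre transgene, whose Villin promoter is active in intestinal epithelium, and they differed in the floxed alleles of Chuk, the gene of the kinase IKKa. The culture medium of all libraries contained EGF, basic FGF, Noggin, R-spondin and a ROCK inhibitor. The sources used here do not give the time between a medium change and RNA extraction. Replicates are labelled biological, with no word on separate mice or separate cultures. The p-values therefore cover the spread among these libraries alone, which may be technical.

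AP-1 is a dimer of basic leucine zipper (bZIP) proteins that binds DNA at short palindromic sites. Jun proteins pair with each other or with Fos proteins, while Fos proteins need a Jun partner, and the make-up of the dimer decides how strongly it activates. Many of these genes are immediate early genes: growth factors, stress and handling of cells switch them on within minutes through MAP kinases and the serum response factor, without new protein synthesis, and their messages decay fast. Fosl1 is switched on later and longer than Fos, in part by AP-1 itself, and is known from invasive epithelial tumour cells. In intestinal tumours of Apc-mutant mice, Jun is known to act together with TCF4 and beta-catenin.

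Chuk, the targeted gene, had 28.9, 24.4 and 34.9 CPM (counts scaled by library size and TMM factor) in knock-out replicates 1, 2 and 3 and 101, 106 and 95.8 CPM in wild-type replicates 1, 2 and 3, a 3.42-fold fall (adjusted p = 8.6e-08; all adjusted p-values here are from edgeR, adjusted by Benjamini-Hochberg across the whole table). Library depth was 20749747 to 31875723 counts, so that 1 CPM corresponded to 20.6 to 31.7 counts. Knock-out replicate 2 stood apart from the other knock-out libraries: chi-square over its degrees of freedom, from the counts, was 36.4 and 37.0 against replicates 1 and 3, which had 5.64 between themselves. Results that rest on that library are given with and without it. The genotypes also differed in sex-linked genes, since Xist had 1234 ± 331 CPM (SD, n = 3) in wild-type libraries and 1 to 3 counts in each knock-out library, and Eif2s3y, Ddx3y and Kdm5d had counts in knock-out libraries alone, so genotype and sex cannot be told apart. Epithelial markers were high in all libraries, with a summed level of Epcam, Cdh1, Krt8, Krt18, Krt19, Vil1 and Cldn7 of 10400 to 12200 CPM in the knock-out and 7960 to 8580 CPM in the wild type. These 7 did not move together. Krt8, Krt18 and Krt19 rose, Epcam, Vil1 and Cldn7 fell, and Cdh1 did not pass an adjusted p of 0.05. That is 85.7% called, beside 57.4% of all genes tested. The higher sum came with the keratins: Krt19 went from 1475 to 3970 CPM, while Epcam went from 915 to 412 CPM. Of 25 markers of fibroblasts, endothelium, leukocytes and smooth muscle, 21 stayed under 1 CPM in all libraries and 11 were at 0. The 4 above it were Tek, Acta2, Cd68 and Csf1r. Summed endothelial markers reached 0.3 to 0.442 CPM in knock-out and 9.93 to 14.5 CPM in wild-type libraries, smooth muscle markers 0 to 0.316 and 9.14 to 17.9 CPM, leukocyte markers 23.1 to 23.7 and 3.72 to 6.98 CPM, and fibroblast markers 0.452 to 0.885 and 0 to 0.339 CPM. Mitochondrial genes took 2.15% to 3.46% of the counts of knock-out libraries and 6.18% to 7.58% of wild-type ones. The part of these markers and of the mitochondrial share in the results below was not tested.

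Promoter sequence is shown for 4 members whose messages are described below, to set side by side the letters in front of genes that rose (Junb, Maff), fell (Jun) or did not pass the test (Fos). Each line is the 100 bases before the RefSeq start (GRCm38.p6), 5′ to 3′ on the strand of the gene, with motif matches in capitals.
Fos (chr12:85473790-85473889, plus strand): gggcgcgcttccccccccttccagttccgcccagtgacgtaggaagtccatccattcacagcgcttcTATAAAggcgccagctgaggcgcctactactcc
Jun (chr4:95052223-95052322, minus strand): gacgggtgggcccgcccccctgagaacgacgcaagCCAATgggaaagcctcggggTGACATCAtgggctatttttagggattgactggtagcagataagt
Junb (chr8:84978749-84978848, minus strand): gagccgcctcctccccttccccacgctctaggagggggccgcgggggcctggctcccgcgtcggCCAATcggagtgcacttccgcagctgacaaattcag
Maff, middle start (chr15:79347420-79347519, plus strand): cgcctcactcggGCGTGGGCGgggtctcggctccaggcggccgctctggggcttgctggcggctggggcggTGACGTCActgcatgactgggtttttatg
Maff, most downstream start (chr15:79348302-79348401, plus strand): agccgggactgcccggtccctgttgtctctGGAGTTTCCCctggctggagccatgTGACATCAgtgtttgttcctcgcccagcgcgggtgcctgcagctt

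The capitals mark the TATA box TATAAA, the CCAAT box, the AP-1 variant TGACATCA known from the Jun promoter, the cyclic AMP response element TGACGTCA, the EGR site GCGNGGGCG and an NF-kB site. Both strands of the 250 bases before each start were searched, and no 2 of the marked matches overlapped. The Jun promoter held TGACATCA 45 to 38 bases before the start, and the same 8 letters stood at the same distance before the most downstream start of Maff. Among 32851 RefSeq promoters, TGACATCA was found in 2.93%, the cyclic AMP response element in 1.55%, the EGR site in 4.7%, the TATA box in 12.4%, the CCAAT box in 33.8% and the NF-kB site in 7.25%. The general AP-1 site TGANTCA, present in 6.75% of promoters, and the CArG box, bound by the serum response factor and present in 1.47%, had no match in these windows. Bases further upstream were not searched, so this does not say that the members lack such sites. Outside the stretches printed, genes that did not pass the test held NF-kB matches too, Fos 214 to 205, Fosb 188 to 179 and Fosl2 182 to 172 bases before the start, and Fosb and Fosl2 also held EGR sites. Neither motif was therefore limited to genes that rose. Jund and Atf3 had no match to any motif searched. A match is a description of the letters and not of binding. The table had entries for 8 of the 10 members, all but Fosl1 and Egr1. Maff had 3 entries, and the most upstream of them held no match and is not printed.

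Of the 10 genes, 3 were higher in the knock-out (Fosl1, Junb, Maff), 2 were lower (Jun, Atf3) and 5 did not pass the adjusted p of 0.05 (Fos, Fosb, Fosl2, Jund, Egr1). Over all 13759 genes tested, 57.4% were called, 30.4% higher and 27% lower, so the 50% of the 10 genes that were called lay near the background. The genotypes did not overlap for the same 5 genes, beside 63.1% of all genes tested. The median log2 fold change of the 10 was 0.15, beside 0 for all genes tested. What set these genes apart from each other was their size and direction: the changes ran from 1.80-fold lower for Atf3 to 23.6-fold higher for Fosl1.

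**Figure D1:**
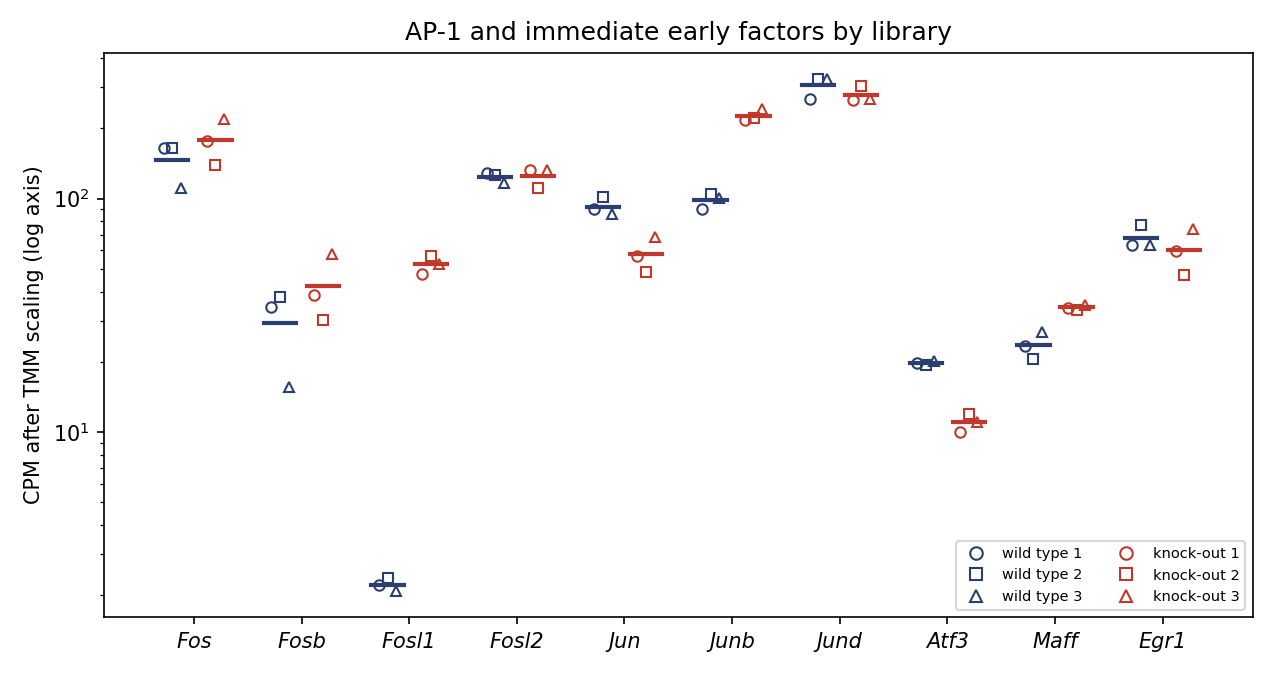
Level of each of the 10 genes in each library, in CPM after TMM scaling on a log axis; circles, squares and triangles are replicates 1, 2 and 3, blue is wild type, red is knock-out, and bars are means. Fosl1 lies near 2 CPM in all wild-type libraries and near 50 CPM in all knock-out libraries, while the points of Fos, Fosb, Fosl2, Jund and Egr1 overlap between the genotypes.

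In the Fos family, Fosl1 rose and its 3 relatives did not pass the test. Fosl1, also called Fra-1 (ENSMUSG00000024912, GRCm38 chromosome 19, 5447547 to 5455946, plus strand), had 47.7, 56.6 and 52.7 CPM in knock-out replicates 1, 2 and 3 and 2.21, 2.37 and 2.08 CPM in wild-type replicates 1, 2 and 3. The lowest knock-out library lay far above the highest wild-type library, and within each genotype the highest value was at most 1.19 times the lowest. The mean went from 2.22 ± 0.147 to 52.3 ± 4.49 CPM (SD, n = 3 each), a log2 fold change of 4.56 (SE 0.19, adjusted p = 1.8e-10). In these bulk libraries, a change in the number of cells of a type and a change in RNA per cell cannot be told apart. Of all genes tested, 94% had a smaller fold change in either direction. Fosl1 shares 57.2% of its exon bases with the opposite-strand gene Ccdc85b, and the sources used here do not say whether the authors counted by strand, so reads of the shared bases cannot be assigned with certainty. Ccdc85b itself had 16.6 ± 3.34 CPM with the knock-out and 13.1 ± 1.24 CPM without it (adjusted p = 0.10).

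Fos, the founding member of the family and the usual early reporter of growth factor signalling, had 177, 139 and 219 CPM in the knock-out libraries and 164, 165 and 111 CPM in the wild type. The genotypes overlapped, with the lowest value in wild-type replicate 3 and the highest in knock-out replicate 3. The log2 fold change was 0.28 (SE 0.17, adjusted p = 0.17). Without knock-out replicate 2 it was 0.40 and passed the test (adjusted p = 0.00973). It also passed when no filter on low counts was used (SE 0.09, adjusted p = 0.012). There the log2 fold change was 0.26, no larger than with the filter, while the standard error was smaller. That pass is therefore not read as further evidence of a rise. Why the standard error fell was not tested. Fos did not pass without knock-out replicate 3 (0.11, adjusted p = 0.613) or without wild-type replicate 3 (0.12, adjusted p = 0.558). Fosb, whose splice forms include the stable delta-FosB, spread most of the 10: it had 38.5, 30.1 and 58.2 CPM among knock-out and 34.4, 37.7 and 15.6 CPM among wild-type libraries. Its highest wild-type library was 2.42 times its lowest, and its log2 fold change was 0.55 (SE 0.29, adjusted p = 0.12). Fosb passed without knock-out replicate 2, with a log2 fold change of 0.71 (adjusted p = 0.011), and without the filter (SE 0.12, adjusted p = 7.35e-05), where the limit given for Fos holds too. Fosb did not pass without knock-out replicate 3 (0.25, adjusted p = 0.493) or without wild-type replicate 3 (0.24, adjusted p = 0.405).

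Fosl2, also called Fra-2, had 133, 111 and 132 CPM among knock-out and 129, 126 and 117 CPM among wild-type libraries. These values overlapped, and the log2 fold change of 0.02 (SE 0.09, adjusted p = 0.87) changed sign under upper-quartile scaling and without knock-out replicate 1 or 3 or wild-type replicate 3. Fosl2 lies on chromosome 5, where the median log2 fold change of 685 genes averaging 5 CPM or more was 0.43 above that of the other autosomes. The other 9 genes lie on chromosomes 1, 4, 7, 8, 12, 15, 18 and 19, whose medians were between -0.05 and 0.03.

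In the Jun family the members went different ways. Junb (ENSMUSG00000052837, chromosome 8, 84974484 to 84978718, minus strand), a weaker activator than Jun that can oppose it, had 216, 222 and 242 CPM among knock-out and 90.1, 104 and 101 CPM among wild-type libraries. Every knock-out library was above every wild-type library. Junb rose 2.31-fold, a log2 fold change of 1.21 (SE 0.08, adjusted p = 1.2e-07). Junb shares 7.52% of its exon bases with the opposite-strand gene Prdx2, at 294 ± 16.6 CPM with the knock-out and 303 ± 18.5 CPM without it (adjusted p = 0.64).

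Jun (ENSMUSG00000052684, chromosome 4, 95049034 to 95052222, minus strand), the main transactivating partner of the Fos proteins, had 57.0, 48.4 and 68.4 CPM among knock-out and 90.4, 101 and 85.9 CPM among wild-type libraries. Every knock-out library was below every wild-type library. Jun fell 1.59-fold, a log2 fold change of -0.67 (SE 0.12, adjusted p = 4.3e-04). Jund, the constitutively expressed member of the family, had 265, 305 and 266 CPM among knock-out and 269, 324 and 327 CPM among wild-type libraries. The genotypes overlapped and the log2 fold change was -0.14 (SE 0.09, adjusted p = 0.23). Without knock-out replicate 2, the highest of its genotype, it was -0.23 and passed (adjusted p = 0.015). Jund shares 52.6% of its exon bases with the antisense gene Gm11175, which had at most 11 counts in any library.

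Atf3, a stress-induced bZIP factor that pairs with Jun proteins (ENSMUSG00000026628, chromosome 1, 191170296 to 191218039, minus strand), had 10.04, 11.9 and 11.1 CPM among knock-out and 19.8, 19.4 and 20.3 CPM among wild-type libraries. All knock-out libraries were lower, and Atf3 fell 1.80-fold, a log2 fold change of -0.85 (SE 0.13, adjusted p = 1.2e-04). Maff, a small Maf protein that has no activation domain of its own and pairs with larger bZIP partners (ENSMUSG00000042622, chromosome 15, 79346621 to 79359076, plus strand), had 34.2, 33.4 and 35.04 CPM among knock-out and 23.5, 20.6 and 26.8 CPM among wild-type libraries. All knock-out libraries were higher, and Maff rose 1.44-fold, a log2 fold change of 0.53 (SE 0.11, adjusted p = 0.0017).

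Egr1, a zinc finger factor outside the bZIP class that is switched on with Fos by the serum response factor, had 60.0, 47.1 and 74.2 CPM among knock-out and 63.3, 77.1 and 63.5 CPM among wild-type libraries. The genotypes overlapped, and the log2 fold change was -0.16 (SE 0.15, adjusted p = 0.36). Without knock-out replicate 2, the lowest of its genotype, it was -0.04 (adjusted p = 0.762), and without knock-out replicate 3 it was -0.34 (adjusted p = 0.0566). Read in the sense direction, no stretch of 50 bases in the transcripts of the 10 genes occurred in a transcript of another gene, family members included. The bases shared with genes on the opposite strand, given above, were not part of that search.

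**Figure D2:**
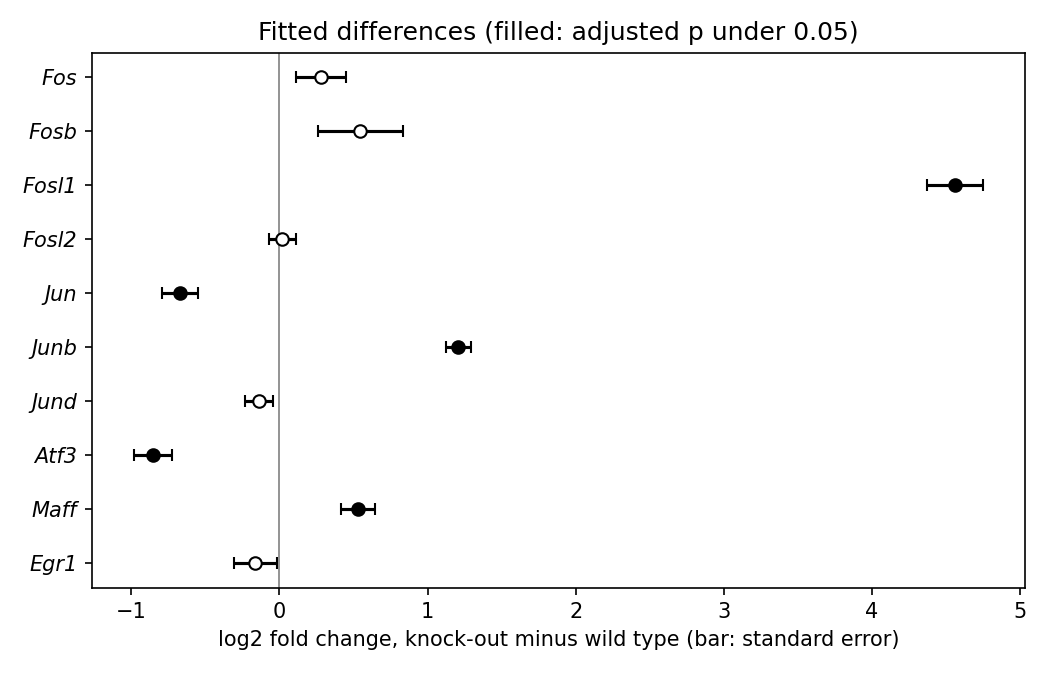
Fitted log2 fold change of each of the 10 genes, knock-out minus wild type, with its standard error as a bar; filled points passed an adjusted p of 0.05. Fosl1 stands at 4.56, Junb at 1.21 and Maff at 0.53 on the higher side, and Jun at -0.67 and Atf3 at -0.85 on the lower side.

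Levels of different genes were compared per length, as CPM per kb of annotated exons. In the wild type the order was Jund at 184 ± 19.7, Fos at 62.5 ± 13.1, Junb at 42.7 ± 3.23, Jun at 29.0 ± 2.47, Egr1 at 15.2 ± 1.77, Fosl2 at 12.8 ± 0.663, Atf3 at 9.21 ± 0.191, Maff at 9.10 ± 1.19, Fosb at 4.68 ± 1.92 and Fosl1 at 1.09 ± 0.0722 CPM per kb (SD, n = 3). Of the neighbours in that order, Atf3 and Maff overlapped between libraries and the others did not. In the knock-out Junb, at 98.6 ± 5.94, stood next to Jund, at 167 ± 13.7, and above Fos, at 75.9 ± 17.0 CPM per kb. Fosl1 moved from the last place to the fourth, at 25.7 ± 2.21 CPM per kb, above Jun at 18.2 ± 3.14. Below them, Egr1, Maff and Fosl2 overlapped each other at 13.5 ± 3.03, 13.2 ± 0.310 and 13.0 ± 1.27 CPM per kb, Egr1 also overlapped Jun, and Fosb at 6.77 ± 2.31 overlapped Atf3 at 5.12 ± 0.443.

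The make-up of both families therefore differed between the genotypes at the level of messages. Fosl1 made up 19.8%, 26.9% and 18.2% of the CPM per kb of the Fos family in knock-out replicates 1, 2 and 3 and 1.21%, 1.29% and 1.63% in wild-type replicates 1, 2 and 3. Fos itself remained the largest part, with 62.1 ± 4.31% in knock-out and 76.9 ± 1.43% in wild-type libraries. The summed level of the family was 121 ± 19.5 CPM per kb in knock-out and 81.1 ± 15.8 in wild-type libraries. Within the Jun family Junb made up 34.7%, 32.8% and 36.8% in knock-out and 17.1%, 16.7% and 16.4% in wild-type libraries. Jund had 58.8 ± 3.18% against 71.9 ± 1.53% and Jun 6.42 ± 1.18% against 11.4 ± 1.17%. None of the shares named for Fosl1, Fos, Junb, Jund and Jun overlapped between the genotypes. They follow from the levels given above, were not tested, and say nothing of protein.

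**Figure D3:**
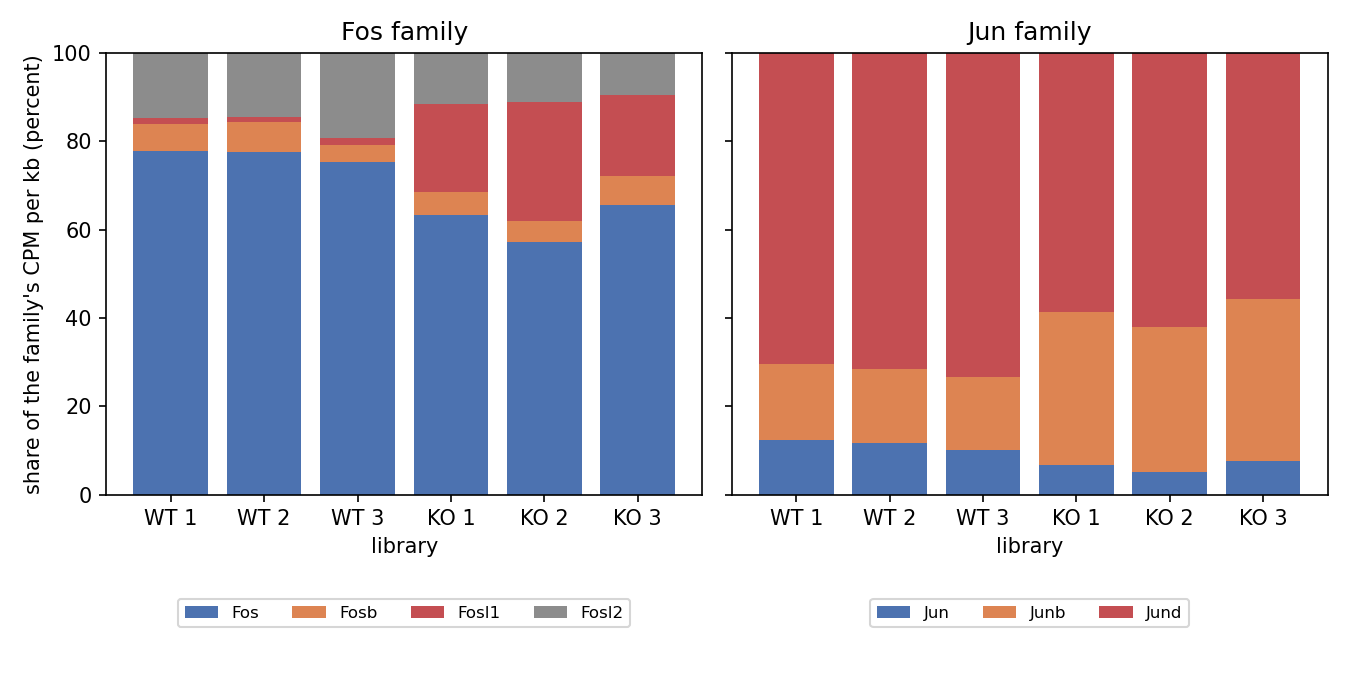
Share of each member in the summed CPM per kb of the Fos family (left) and of the Jun family (right), in percent, with 1 bar per library (WT wild type, KO knock-out). Fosl1 takes 18.2% to 26.9% in the knock-out bars and under 2% in the wild-type bars, and Junb 32.8% to 36.8% against 16.4% to 17.1%.

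Several of the 10 genes varied more within a genotype than most genes did. The coefficient of variation over the 3 knock-out libraries was 34.1% for Fosb, 22.5% for Egr1, 22.4% for Fos and 17.3% for Jun, beside a median of 8.88% over 10368 genes that averaged 5 CPM or more. In the wild type it was 40.9% for Fosb, 21.0% for Fos, 13.1% for Maff, 11.7% for Egr1 and 10.7% for Jund, beside a median of 7.5%. Fosl1 had 8.58% in knock-out and 6.61% in wild-type libraries, and Junb 6% and 7.55%. Maff, at 13.1% in the wild type, had 2.32% in the knock-out. In the knock-out, Fos, Fosb, Jun, Maff and Egr1 shared 1 order, with replicate 3 highest and replicate 2 lowest. The same order was found in 16 of 33 tested genes of another list of immediate early genes, among them Dusp1, Ier3, Btg2, Zfp36 and Ccn1, and in 19.9% of all genes tested.

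That list of 34 immediate early genes outside AP-1 had 21 members that rose, 3 that fell and 9 that did not pass, with 1 not tested, a median log2 fold change of 0.65, and 72.7% of the tested genes called beside 57.4% of all genes. Sgk1, a kinase gene of growth factor and hormone response, rose from 25.1 ± 1.15 to 187 ± 29.1 CPM (adjusted p = 1.1e-09). Ccn2, a matricellular growth factor, rose from 23.6 ± 2.66 to 137 ± 5.87 CPM (adjusted p = 6.2e-10), and Klf4, a factor of epithelial differentiation, from 59.8 ± 2.96 to 185 ± 4.64 CPM (adjusted p = 3.7e-09). Ptgs2, the inducible cyclooxygenase, rose from 2.66 ± 1.82 to 257 ± 66.1 CPM (adjusted p = 2.6e-09). The 3 that fell were Zfp36 (1.23-fold), Zfp36l2 (1.21-fold) and Trib1 (1.19-fold). Zfp36 and Zfp36l2 encode proteins that destabilise messages rich in AU elements. Their relative Zfp36l1 went the other way, from 90.7 ± 4.3 CPM in wild-type to 128 ± 14.1 CPM in knock-out libraries (adjusted p = 6.5e-04). This gene was added with its levels already known. Ier2, Ccn1 and Myc, like Fos and Egr1, did not pass the test.

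Other bZIP genes changed in both directions. Of 22 listed, 9 rose, 6 fell, 3 did not pass and 4 were too low to test. Of the tested ones 83.3% were called, beside 57.4% of all genes, and their median log2 fold change was 0.41. Jdp2, a repressor that pairs with Jun, rose from 6.00 ± 0.680 to 21.9 ± 2.83 CPM (adjusted p = 8.3e-07). The small Maf gene Mafk rose 2.54-fold to 94.3 ± 11.3 CPM (adjusted p = 3.1e-07) and Mafg 1.33-fold to 115 ± 1.09 CPM, alongside Maff. Mafk lies on chromosome 5. Of the larger partners of small Maf proteins, 3 rose, Nfe2l2 (Nrf2) 2.65-fold to 1030 ± 47.9 CPM (adjusted p = 7e-09), Nfe2l3 3.95-fold and Nfe2l1 1.85-fold, whereas the repressing partner Bach1 had 37.3 CPM against 40.2 (adjusted p = 0.56). Maf had 3.59 ± 0.878 CPM in wild-type and 0.357 ± 0.223 CPM in knock-out libraries (85 to 95 and 3 to 17 counts), and Batf2 0.912 ± 0.247 and 0.179 ± 0.211 CPM (18 to 27 and 0 to 11 counts). Both passed the filter on low counts only through the wild type and so had to differ. Their places among the 6 that fell are a description. Atf2, a partner of Jun at cyclic AMP response elements, rose 1.32-fold, and Crem 1.64-fold. Atf5 fell 2.60-fold, Atf4 1.30-fold, and Atf7 and Atf1 1.24-fold each. The calls of Atf7, Atf1 and Batf2 did not hold without 1 of the libraries (adjusted p = 0.0822 for Atf7 without wild-type replicate 1 and 0.0548 without wild-type replicate 2, 0.0698 for Atf1 without wild-type replicate 2, 0.0527 for Batf2 without knock-out replicate 1 and 0.0522 without knock-out replicate 3).

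Around Egr1, both Nab corepressors rose, which bind Egr proteins and limit their activity: Nab1 1.61-fold to 112 ± 7.76 CPM (adjusted p = 2.8e-05) and Nab2, itself a target of Egr1, 1.66-fold to 23.4 ± 1.84 CPM (adjusted p = 8.4e-04). Egr2, Egr3 and Egr4 were too low to test, with at most 30 counts in any library. The 2 Nab genes were thus the only tested genes of this list, which is 100% called beside 57.4% of all genes, and too few to read as a result. Of 6 genes of the serum response factor and its cofactors, 2 rose, 2 fell and 2 did not pass, which is 66.7% called beside 57.4% of all genes. Elk3, an ETS cofactor also called Net, rose from 26.3 ± 4.04 to 132 ± 16.7 CPM (adjusted p = 1.3e-08), and Elk1, which lies on chromosome X, rose 1.43-fold (adjusted p = 0.0045). Mrtfb, an actin-regulated cofactor, fell 1.66-fold (adjusted p = 1.4e-04). Srf fell 1.16-fold (adjusted p = 0.037), a call lost with the replicate number as a block (adjusted p = 0.0652), without the filter (0.0624) and without knock-out replicate 1 (0.162) or any 1 of the wild-type replicates (0.0657, 0.0809 and 0.113).

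**Figure D4:**
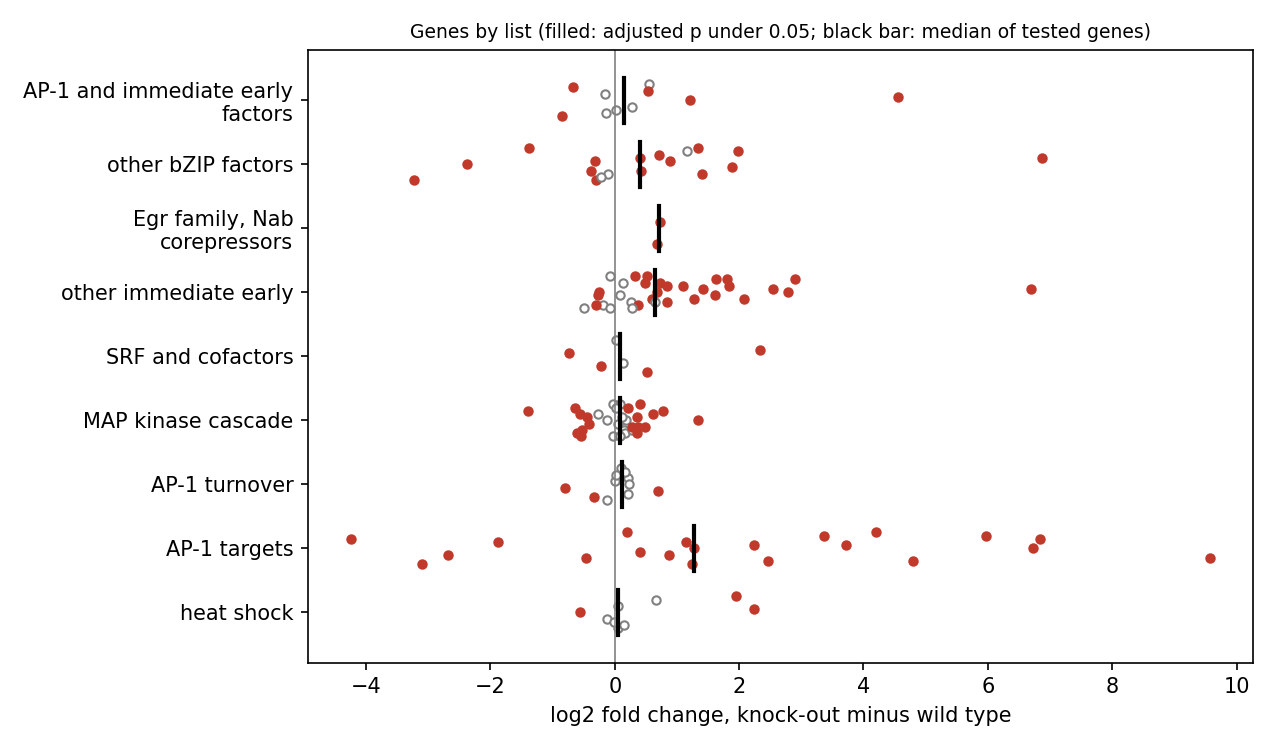
Log2 fold change, knock-out minus wild type, of every tested gene in the 10 genes described and in 8 related lists; filled points passed an adjusted p of 0.05, open points did not, black bars are medians, and the vertical spread within a list has no meaning. The list of immediate early genes lies mostly to the right, with a median of 0.65, and the MAP kinase list around 0, with a median of 0.09.

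The MAP kinase cascades that feed into AP-1 had no common direction. Of 32 genes, 10 rose, 8 fell, 13 did not pass and 1 was not tested, which is 58.1% called beside 57.4% of all genes, with a median log2 fold change of 0.09. Rps6ka4 (Msk2), a kinase that acts on chromatin at immediate early genes, rose 2.53-fold to 153 ± 4.93 CPM (adjusted p = 2.1e-08), whereas its relative Rps6ka5 had 4.64 ± 0.907 against 7.14 ± 1.16 CPM (adjusted p = 0.03, and 0.0517 with the replicate number as a block). That call of Rps6ka5 was also lost without knock-out replicate 1 or 2 or wild-type replicate 1 or 2 (adjusted p = 0.0594, 0.0582, 0.115 and 0.0774). Mapk7, the kinase ERK5, rose 1.72-fold and Map3k5, a stress kinase, 1.54-fold. The p38 branch was mixed. Map2k6 fell 2.63-fold (adjusted p = 7.9e-06), Mapk13 1.56-fold and Mapkapk2 1.47-fold, while Mapkapk3 rose 1.21-fold (adjusted p = 0.0138) and Map2k3 1.16-fold (adjusted p = 0.037), and Mapk11, Mapk12 and Mapk14 did not pass (these last 5 were named after their values were seen). Mapk8, the Jun kinase JNK1, had 44.8 CPM against 60.0 (adjusted p = 0.0019). Its relative Mapk9 had 58.8 CPM in the knock-out against 55.1 in the wild type and did not pass (adjusted p = 0.42). Both Mapk8 and Mapk9 were named after their values were seen.

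Genes that control the breakdown or modification of Jun proteins were called in 3 of 11 cases, or 27.3%, beside 57.4% of all genes. This difference was not tested. Dda1, a part of the ubiquitin ligase that acts on Jun, rose 1.61-fold (adjusted p = 5.3e-05), and Usp28, a deubiquitinase that protects Jun, fell 1.74-fold (adjusted p = 5.8e-05). Senp2, a SUMO protease, fell 1.27-fold (adjusted p = 0.0029). Cul4a had 171 ± 17.8 against 147 ± 6.64 CPM (adjusted p = 0.051), and passed without knock-out replicate 2 (adjusted p = 0.0022) and when genes of chromosomes 5, X, Y and M were left out (adjusted p = 0.042).

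Among 28 genes known as AP-1 targets, 16 rose, 5 fell and 7 were too low to test. All 21 tested were called, beside 57.4% of all genes tested. Genes that pass the filter only through the genotype in which they are high had to differ, and this list was drawn up with results of these data known, so the count is a description. Sprr1a, a cornified envelope precursor, rose from 9.23 ± 2.86 to 958 ± 40.5 CPM (adjusted p = 1e-11). Plau, the urokinase protease, rose from 7.66 ± 0.336 to 141 ± 7.96 CPM (adjusted p = 1.2e-11), and its receptor Plaur 4.70-fold to 320 ± 11.2 CPM. The connexin gene Gja1 rose from 11.2 ± 2.89 to 149 ± 4.41 CPM (adjusted p = 4.7e-10). The 5 that fell were Vegfa, an angiogenic growth factor, from 30.0 ± 4.77 to 1.56 ± 0.587 CPM (adjusted p = 1.1e-08), the metallothionein genes Mt1 and Mt2, the chemokine gene Ccl2 and the chromatin gene Hmga1. The metalloprotease genes Mmp3 and Mmp10 had no count in any library.

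Heat shock genes, which respond to stress and handling of cells, had a summed level of 1420 to 1450 CPM in the knock-out and 1390 to 1410 CPM in the wild type. The largest part of that sum was Hspa8 (named after its values were seen), at 691 ± 22.8 against 695 ± 14.5 CPM. The sum therefore says little of genes at low levels, such as Hspa1a and Hspa1b. Of 9, 2 rose, 1 fell and 6 did not pass, which is 33.3% called beside 57.4% of all genes. The near-identical inducible genes Hspa1b, from 9.73 ± 2.05 to 45.3 ± 4.19 CPM, and Hspa1a, from 1.82 ± 0.536 to 7.29 ± 0.209 CPM, rose, though how reads were split between these copies is uncertain. Hspe1, a mitochondrial chaperonin gene, fell 1.47-fold (adjusted p = 5.5e-04), and Hsph1 had 316 ± 6.81 against 285 ± 6.36 CPM (adjusted p = 0.076). Their part in the levels of the immediate early genes was not tested.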

How the data were processed

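Stranded, polyA-selected RNA libraries of 3 knock-out and 3 wild-type tumoroid cultures were sequenced, per the labels' protocols. Reads were aligned with STAR to GRCm38, per the submitters' processing notes. Which version of STAR, counter, strand setting and annotation release were used is not given in the sources used here. Raw counts were deposited, whole numbers for each Ensembl gene, 29847360 ± 2697582 per knock-out and 25759467 ± 4586682 per wild-type library (SD, n = 3). Symbols, coordinates and exon lengths came from GENCODE M21 (GRCm38), and promoter sequences from RefSeq (GRCm38.p6, 250 bases before the start).

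Differences were tested with edgeR 4.0.16 (R 4.3.3) by quasi-likelihood, with the legacy setting off, on all genes kept by filterByExpr (minimum count 10, minimum total 15), with TMM scaling, genotype as the only term and Benjamini-Hochberg adjustment over all genes tested, threshold 0.05. Standard errors came from the fit's weights at its working dispersion. Alternatives were other scalings (DESeq2 1.42.0 size factors, upper quartile, library size), other filters, the DESeq2 Wald test, voom of limma 3.58.1, a replicate block, a threshold of 0.01, omission of chromosomes 5, X, Y and M, omission of each library and, chosen after seeing the data, the legacy fit. Tests were checked on simulated data with the same dispersion for every gene, which does not cover the unequal spread of the genes here. The genes and lists were chosen with earlier results of these data known. Named from each list were the up to 4 genes with the smallest adjusted p among those with at least 5 CPM in the higher genotype, every called gene of the bZIP, serum response factor and Nab lists, MAP kinase genes called with at least 1.5-fold change, and, chosen after their values were seen, further genes given as examples of a count or for overlapping exons. Of the genes so named, 2 are not reported here.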

Additional observations from a re-analysis of the deposited data

How the results depend on the processing

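The calls of Fosl1, Junb, Maff, Jun and Atf3 and their directions held under every alternative run, with log2 fold changes of 4.47 to 4.63, 1.14 to 1.25, 0.45 to 0.63, -0.81 to -0.59 and -0.94 to -0.79 when each library was left out. Over the same settings Fos ran from 0.11 to 0.40, Fosb from 0.24 to 0.75, Fosl2 from -0.02 to 0.07, Jund from -0.23 to -0.09 and Egr1 from -0.34 to -0.04, with 3 to 5 of the 10 genes called higher and 2 to 3 lower. Without knock-out replicate 2, Fos, Fosb and Jund passed. The cause was not tested. With no filter on low counts 5 were higher, with Fos at 0.26 and Fosb at 0.53. Both passed there with smaller standard errors and no larger fold changes, so these passes are not read as further evidence. Fosl2 was at -0.04 under upper-quartile scaling, which moved the median of all genes by -0.057. With the longest transcript as length, the share of Fos in the wild type was 71.3%, of Junb 40.4% (knock-out) and 20.4% (wild type), and of Jund 53.8% and 68.7%. With the replicate number as a block, 3 of the 10 genes were higher and 2 lower, with 3959 and 3473 of all genes against 4182 and 3714. Deviations of same-numbered libraries from their genotype means had correlations of 0.108, -0.11 and -0.19. The largest of any pair was 0.269, for knock-out replicate 2 with wild-type replicate 3. With 3 libraries per genotype these values cannot decide whether the numbers pair the libraries. Of the 147 genes in the 8 related lists, some too low to test, 63 were higher and 27 lower, and 60 to 68 and 22 to 27 when each library was left out. Over all genes tested, 30.4% were higher and 27% lower. At 20.6 to 31.7 counts per CPM, Egr2, Egr3, Egr4, Batf and Batf3 were too low to test.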
